A study of Mus musculus with 21 samples.

Results

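The genes described here are 36 immediate-early and early stress genes, chosen by name as textbook members of the rapid transcriptional response, out of 24206 gene names in the deposited table. They and the other gene lists below were chosen with earlier results of these data known. Their counts beside the shares over all genes are thus a description. All 36 were found. They include the AP-1, EGR, KLF and NR4A transcription factors, the factors that end the response and early stress effectors. Values are RPKM, read counts normalised to the length of the gene and to sequencing depth. In the stroke experiment 34 members had a mean of at least 1 RPKM and were tested, and in the beta-catenin experiment 33 did. Dusp5 and Nr4a3 were below that level in the stroke experiment, with at most 0.158 and 0.0841 RPKM in any library. Dusp5, Myc and Egr2 were below it in the beta-catenin experiment.

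RNA was sequenced from brain endothelial cells of adult C57BL/6 mice aged 12 to 20 weeks, released with Collagenase IV, Dispase and DNase I and sorted as live CD45-CD31+PDGFRb- cells. The stroke experiment had 4 groups of 4 libraries, all from mice with a middle cerebral artery occlusion of 1 h and reperfusion of 1 d. Controls were Gpr124 flox/+; ROSA-CreER+ and knockouts Gpr124 flox/-; ROSA-CreER+, so both carried the inducible Cre and the controls kept only 1 unfloxed Gpr124 allele. The ROSA locus is active in most cell types, so the deletion was not limited to endothelium. Cells of the non-stroke hemisphere (WT-NS for controls, Cko-NS for knockouts) and of the stroke hemisphere (WT-ST, Cko-ST) were sorted separately, and the non-stroke side is that of an operated brain. All libraries of the stroke experiment are labelled female except Cko-ST-3 and Cko-ST-4. The beta-catenin experiment had no stroke and its libraries are labelled male. It held 3 libraries (Bcat) from Ctnnb1 lox(ex3)/+; Cdh5-CreER+ mice, in which Cre in endothelium removes exon 3 and stabilises beta-catenin, and 2 libraries (WT) from Ctnnb1 +/+; Cdh5-CreER+ mice.

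Immediate-early genes are switched on within minutes to hours of a signal, from pre-existing transcription factors and with no need for new protein. Kinases of the MAPK pathway, calcium, stretch and blood flow reach them through serum response factor, CREB and TEAD factors. Many encode transcription factors of the AP-1, EGR, KLF and NR4A families, and others encode the phosphatases and RNA-decay factors that end the response. Tissue digestion and cell sorting also induce these genes. All groups went through the same digestion and sort, so induction during isolation and induction in the brain cannot be told apart in a level. In bulk RNA a change in the share of a cell type and a change in the RNA of each cell cannot be told apart either.

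The DNA just before the start of these genes can hold the sites through which these signals act, and the stretches below show the best-known kinds. RefSeq starts (GRCm38.p6) were matched for 29 of the 36 members, and the 250 bases before each start were searched on both strands. Fosl1, Egr1, Egr3, Ier2, Klf10, Myc and Ctgf had no matched start and were not searched. Sites farther from a start were not searched for any member. The CArG box, bound by serum response factor, was found for Egr2, Dusp5 and Zfp36 (3 of 29 members, against 1.62% of all 27025 genes). The full CRE, TGACGTCA, bound by CREB and ATF factors, was found for Dusp1, Btg2 and Maff (3 of 29, against 1.77%). The TEAD site GGAATG was found for 6 of 29, namely Egr2, Nr4a1, Nr4a3, Cyr61, Sgk1 and Mcl1 (14.4% of all genes). The AP-1 site TGANTCA was found for Zfp36l1 (1 of 29, against 7.82%). The EGR site GCGNGGGCG was found for 10 of 29, namely Fosb, Fosl2, Klf2, Klf4, Btg2, Zfp36, Nr4a1, Nr4a2, Gadd45b and Maff (5.33%). The letters of none of these motifs contain those of another. A match describes the letters only. The stretches are written 5' to 3' on the strand of the gene and end before its start, with the motif in capitals; in Cyr61 the capitals are the TEAD site as it reads on the opposite strand. For Egr2, 1 of 5 listed starts is shown.
Zfp36, chr7:28379242-28379321, minus strand: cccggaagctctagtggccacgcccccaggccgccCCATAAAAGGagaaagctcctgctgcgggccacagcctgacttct
Egr2, chr10:67537762-67537841, plus strand: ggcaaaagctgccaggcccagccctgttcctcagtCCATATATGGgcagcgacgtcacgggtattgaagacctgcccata
Dusp1, chr17:26508573-26508650, minus strand: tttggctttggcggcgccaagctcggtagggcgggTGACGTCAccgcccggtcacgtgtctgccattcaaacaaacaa
Btg2, chr1:134079279-134079356, minus strand: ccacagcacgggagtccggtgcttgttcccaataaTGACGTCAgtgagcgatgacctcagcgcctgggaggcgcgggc
Maff, chr15:79347456-79347519, plus strand: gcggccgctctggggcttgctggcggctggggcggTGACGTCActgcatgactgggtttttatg
Cyr61 (Ccn1 in RefSeq), chr3:145650048-145650123, minus strand: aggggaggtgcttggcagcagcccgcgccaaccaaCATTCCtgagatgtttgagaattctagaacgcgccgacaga

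Library depth, estimated from the low values, was 4.71 to 19.6 M reads in the stroke experiment. Gpr124, the targeted gene, was 4.49 ± 2.25 RPKM in WT-NS, 4.99 ± 2.52 in WT-ST, 2.76 ± 1.65 in Cko-NS and 1.37 ± 0.585 in Cko-ST (SD, n = 4 each). Knockouts differed from controls in Gpr124 by -0.57 ± 0.39 on the log2 scale on the non-stroke side (adjusted p = 0.533), and by -1.28 ± 0.39 on the stroke side (adjusted p = 0.764). Which exons were deleted is not given in the sources used here, so tags at the 3' end check the genotype only in part. Ctnnb1 was 221 ± 45.5 RPKM in Bcat (SD, n = 3) and 305 ± 6.92 in WT (SD, n = 2), a level that does not show whether exon 3 was removed. By Xist and Y-linked RNA 2 knockout libraries read against their labelled sex, namely Cko-NS-4 and Cko-ST-3, and counts without them are given below. Cko-NS-4 read male (Xist 1.48 RPKM, Y-linked sum 189) and Cko-ST-3 female (89.7 and 0.423). Cko-ST-4, labelled male, read male (0.776 and 249), so the libraries of this experiment that read male share a replicate number. Leaving out Cko-NS-4 and Cko-ST-3 keeps Cko-ST-4, so that set is not balanced for sex and parts same-numbered libraries. The endothelial markers were all present, and their sum was at least 1934 RPKM in every library.

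Among the 34 members tested, 12 rose in the stroke hemisphere of controls and none fell, where 8.46% of the 9838 genes tested rose and 4.84% fell. In knockouts 9 of 34 rose and none fell, where 6.44% of genes rose and 8.71% fell. Both counts are from the fit that did not use the replicate number. Fosl1 and Myc were under a mean of 1 RPKM in both non-stroke groups and entered the test only through the stroke side, where they are high, so their passing was fixed in part by that filter and is not used as support. Without these 2 genes, 10 of 32 members (31.2%) rose in controls and 7 of 32 (21.9%) in knockouts, 5 of them in both. With the replicate number as a block, which the correlation between same-numbered knockout hemispheres calls for, 13 of 34 rose in knockouts and none fell, where 6.93% of genes rose and 9.09% fell. The 4 members added were Fos, Fosl2, Gadd45b and Gadd45g. In controls the block gave 15 of 34 that rose and none that fell, where 877 of 9838 genes rose and 583 fell. Fos was among the members added there too. Myc, Fosl1, Cyr61, Ier5, Klf6, Dusp6 and Klf10 rose in both genotypes, while Fos, Fosb, Jun, Junb, Jund, Egr1, Egr2, Egr3, Ier2, Klf2, Klf4 and Zfp36 passed in neither in the fit without the block. The 7 genes shared by both comparisons were 58.3% of the 12 in controls and 77.8% of the 9 in knockouts, with Fosl1 and Myc counted. Without these 2 genes 5 were shared, out of 10 in controls and 7 in knockouts. The share over all genes called in both comparisons is not given here, so the shared calls are a description only. Every stroke-side library lay above every non-stroke library for 10 of 34 members in controls, against 11.9% of genes, and for 8 of 34 in knockouts, against 7.4%; without Fosl1 and Myc these were 8 and 6 of 32. No member lay wholly below in either genotype, as 8.7% of genes did in controls and 11.4% in knockouts. The tests were limma's moderated tests on log2(RPKM + 1) with Benjamini-Hochberg adjustment over all genes and a threshold of 0.05, and every adjusted p below is from them. Differences are on that log2 scale, which understates low genes, with the SE of the fit. Separate mice are not stated for the libraries of a group, so the p-values rest on the spread among samples, which may be technical.

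The median difference of the members was 0.58 in controls and 0.49 in knockouts, against 0.01 and -0.13 over all genes tested. Of the 34 members 29 had a positive difference in controls and 27 in knockouts, 25 of them in both. Over all genes tested 50.8% were positive in controls and 41.4% in knockouts. Without Fosl1 and Myc the medians were 0.55 and 0.45, and 27 of 32 members were positive in controls and 25 of 32 in knockouts. These sign counts are not tests, since the members went up and down together within groups. Scaling by median of ratios moved the median over all genes in knockouts from -0.13 to -0.02 and that of the members from 0.49 to 0.62, and the split of calls over all genes from 634 higher and 857 lower to 843 higher and 627 lower. Under quantile normalization that split was 744 and 663. The members that rose in knockouts were 13 under median-of-ratios scaling, which added Mcl1, Gadd45g, Fos and Rhob, and 6 under quantile normalization, which took away Dusp1, Dusp6 and Klf10. The member counts depended on single libraries: 7 rose in controls without WT-NS-4, and in knockouts 5 rose without Cko-ST-1 and 4 without Cko-ST-2. Without Cko-NS-4 and Cko-ST-3 together, 10 rose and 1, Ctgf, fell in knockouts, and they were not the same members: Ier5, Dusp6 and Dusp1 lost the call, Fosl1 was below the filter, and Gadd45b, Gadd45g, Klf4, Fos and Rhob gained it. That set holds a library that read male on the stroke side only. For none of the sets with libraries left out is the share over all genes given here.

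**Figure D1:**
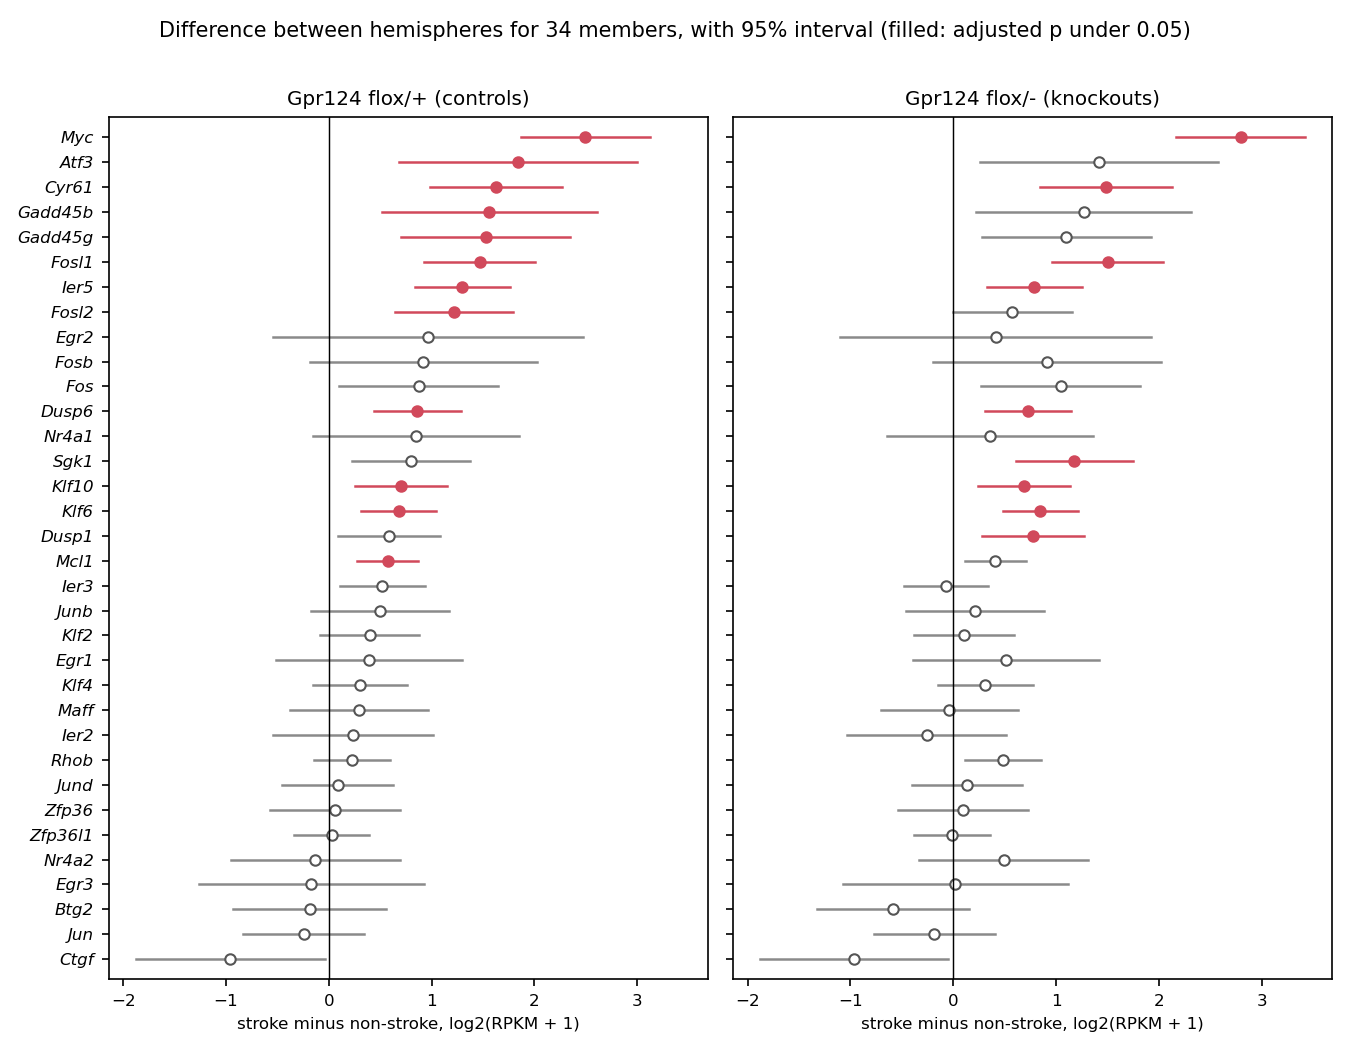
Difference between the stroke and the non-stroke hemisphere on the log2(RPKM + 1) scale for the 34 members tested, controls on the left and knockouts on the right, with 95% intervals. Filled points passed an adjusted p of 0.05 in the fit without the replicate block. Members are ordered by the difference in controls, with Myc at the top (2.49 and 2.79) and Ctgf at the bottom (-0.96 in both).

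AP-1 is a dimer of a FOS-type and a JUN-type protein. Fos, Fosb and Fosl2 had positive differences in both genotypes, of which only that of Fosl2 in controls passed without the block. The sign of Fosl1 was set in part by the filter and is not counted with them. Fosl1 (chromosome 19, GRCm38 5447547 to 5455946) encodes FRA-1 and was listed at 0 in all 4 WT-NS libraries. It was 2.14, 1.55, 2.38 and 1.16 RPKM in WT-ST. Among knockouts, Cko-NS had 0, 0.368, 0 and 0.0394, and in Cko-ST 2.53, 2.37, 2.52 and 1.19. Every stroke-side library was thus above every non-stroke library, which is a description, since the filter let Fosl1 in through those libraries; no fold is given against a group listed at 0.

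Fosl2, which encodes FRA-2, was 59.8, 48.0, 56.8 and 31.3 RPKM in WT-NS and 112, 118, 147 and 81.5 in WT-ST. These groups did not overlap, and Fosl2 rose by 1.22 ± 0.27 (adjusted p = 0.00567). Fosl2 in Cko-NS was 64.8, 89.9, 110.3 and 57.2, and in Cko-ST 120.4, 119.9, 174 and 73.8. The knockout groups overlapped, because Cko-ST-4 lay below Cko-NS-2 and Cko-NS-3, and the difference was 0.58 ± 0.27 (adjusted p = 0.170). With the replicate number as a block Fosl2 passed in knockouts (adjusted p = 0.0245).

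Fos (chromosome 12, GRCm38 85473890 to 85477273), the archetype of the class, had 1115, 1304, 2207 and 549 RPKM in WT-NS and 1896, 2305, 3007 and 1522 in WT-ST. In Cko-NS it had 705, 1152, 791 and 1961, and in Cko-ST 2463, 1927, 1523 and 3178. WT-NS-3 and Cko-NS-4 reached the stroke-side range, so the groups overlapped in both genotypes. The difference was 0.88 ± 0.37 in controls (adjusted p = 0.128) and 1.05 ± 0.37 in knockouts (adjusted p = 0.0633). In knockouts Fos passed with the replicate number as a block (adjusted p = 0.00285), and also without Cko-NS-4 (1.34 ± 0.36, adjusted p = 0.0196). In controls it passed without WT-NS-3 (1.19 ± 0.36, adjusted p = 0.0414) and with the replicate number as a block (adjusted p = 0.00860).

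Fosb scattered widely within groups. It was 78.9, 111, 200.5 and 27.3 RPKM in WT-NS and 126, 184, 249.6 and 110.2 in WT-ST. In knockouts it was 52.9, 109, 80.4 and 347 in Cko-NS and 219, 182, 174 and 298 in Cko-ST. The highest library of all was the non-stroke Cko-NS-4, and the differences were 0.92 ± 0.53 (adjusted p = 0.281) and 0.91 ± 0.53 (adjusted p = 0.261).

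The JUN-type subunits passed in neither comparison. Jun was 272, 310.4, 414 and 155 RPKM in WT-NS and 207, 275, 274 and 177 in WT-ST, a difference of -0.24 ± 0.28 (adjusted p = 0.638). In knockouts Jun was 159.7, 317, 257 and 382 in Cko-NS and 250.3, 209, 194 and 293 in Cko-ST (-0.18 ± 0.28, adjusted p = 0.705). Within each genotype the stroke-side values of Jun lay inside the range of the non-stroke values. Junb was 56.9, 78.0, 99.99 and 34.3 in WT-NS, 83.2, 86.4, 113 and 76.6 in WT-ST, 43.3, 74.5, 55.1 and 131 in Cko-NS and 94.4, 73.4, 61.7 and 97.9 in Cko-ST. Its differences were 0.50 ± 0.32 in controls (adjusted p = 0.344) and 0.21 ± 0.32 in knockouts (adjusted p = 0.705), and Jund differed by 0.09 ± 0.26 and 0.14 ± 0.26.

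Atf3 encodes a stress factor of the ATF family that pairs with JUN proteins. It was 7.61, 13.5, 35.5 and 3.34 RPKM in WT-NS and 40.6, 41.3, 59.9 and 29.6 in WT-ST. WT-NS-3 lay above WT-ST-4, the only overlap, and Atf3 rose by 1.84 ± 0.55 (adjusted p = 0.0332). In Cko-NS it was 4.63, 27.9, 17.6 and 36.4, and in Cko-ST 61.8, 42.5, 44.4 and 45.1. These groups did not overlap, yet the difference of 1.42 ± 0.55 missed the threshold (adjusted p = 0.0920). The call in controls ended under 6 of 16 alternatives, among them leaving out WT-NS-1 (1.69, adjusted p = 0.0853), WT-NS-4 (1.36, adjusted p = 0.118), WT-ST-1 (1.85, adjusted p = 0.0655), WT-ST-2 (1.85, adjusted p = 0.0620) or WT-ST-3 (1.67, adjusted p = 0.0960). Maff, a small MAF factor without an activation domain, was 1.64 to 5.69 RPKM in controls and 2.58 to 8.54 in knockouts, and passed in neither.

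Myc, on chromosome 15 (GRCm38 61985391 to 61990374), encodes the growth-promoting transcription factor. It was 0.0883, 0.0602, 0.111 and 0.803 RPKM in WT-NS and 5.35, 4.74, 6.41 and 7.64 in WT-ST. In Cko-NS it was 0.231, 0.164, 0.541 and 0.169, and in Cko-ST 6.87, 7.44, 5.19 and 13.6. No non-stroke library reached 1 RPKM and no stroke-side library was below 4.74. The difference was 2.49 ± 0.30 in controls and 2.79 ± 0.30 in knockouts, given as a description because the stroke side alone carried Myc past the filter.

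Cyr61 and Ctgf encode related secreted matrix proteins and are both textbook targets of YAP with TEAD factors. Their differences had opposite signs here, which were not tested against each other. Cyr61 (chromosome 3, GRCm38 145646976 to 145649981) was 61.7, 78.4, 97.3 and 35.3 RPKM in WT-NS and 222, 187, 275 and 138 in WT-ST. In knockouts it was 85.5, 113, 80.3 and 113 in Cko-NS and 337, 413, 244 and 164 in Cko-ST. The hemispheres did not overlap in either genotype, and Cyr61 rose by 1.63 ± 0.30 (adjusted p = 0.00157) and 1.49 ± 0.30 (adjusted p = 0.00291), under all 16 alternatives in each. Ctgf was 216, 371, 453 and 458 RPKM in WT-NS and 263, 175, 159.6 and 159 in WT-ST. In Cko-NS it was 1020.2, 576, 648 and 159.7, and in Cko-ST 190.4, 267, 481 and 172. Its difference was -0.96 ± 0.44 in each genotype (adjusted p = 0.164 and 0.149). The low non-stroke value of Cko-NS-4, one of the libraries that read against their labelled sex, set the overlap in knockouts: without it Ctgf fell by 1.51 ± 0.33 on the log2 scale (adjusted p = 0.00598). In controls Ctgf fell only when the 2 control groups were fitted alone (adjusted p = 0.0263) or when Cko-NS-4 and Cko-ST-3 were left out of the shared fit (adjusted p = 0.0187).

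**Figure D2:**
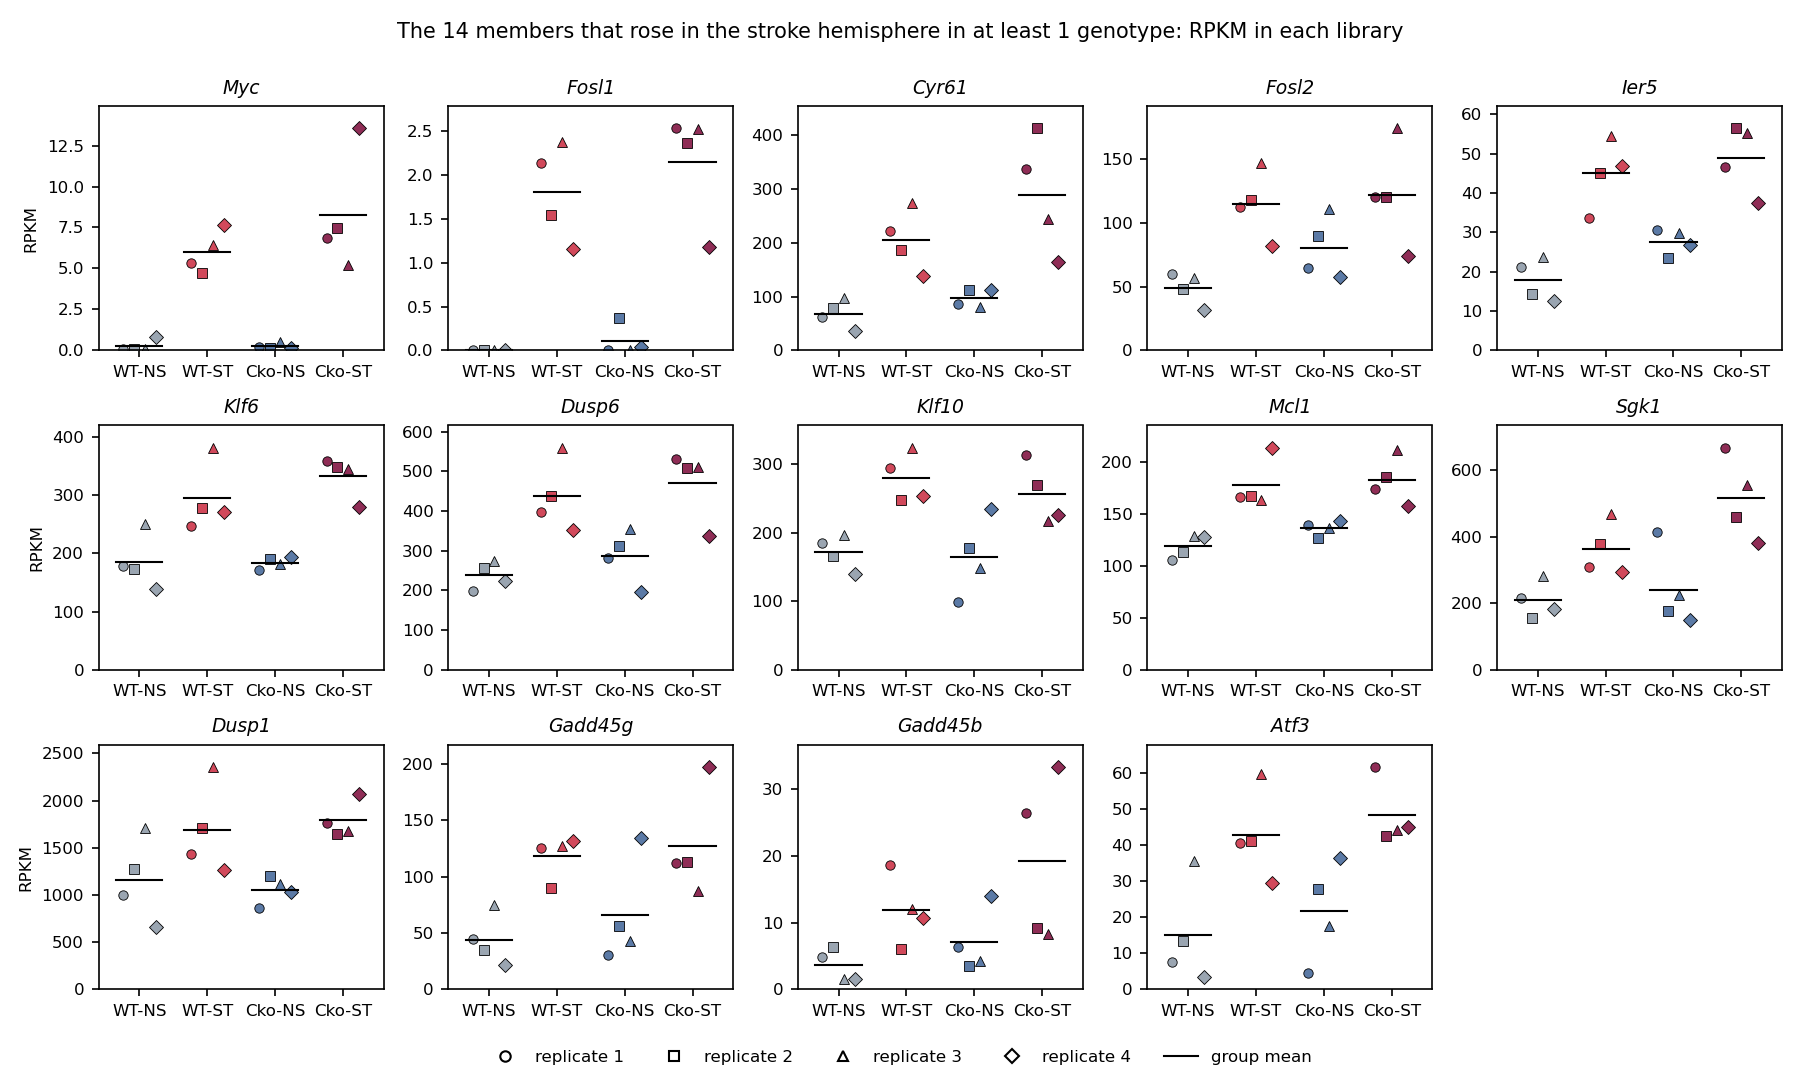
RPKM of the 14 members that rose in the stroke hemisphere of at least 1 genotype in the fit without the replicate block. Each library is 1 point with the shape giving the replicate number, and a line marks the group mean. Each panel has its own axis from 0. Myc and Fosl1 are near 0 in the non-stroke groups, while Klf6, Dusp6, Klf10 and Mcl1 differ by less than 1 on the log2 scale.

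The EGR genes encode zinc-finger factors that follow serum response factor. Egr1 was 155, 201, 429 and 96.0 RPKM in WT-NS and 184, 309.9, 374 and 178 in WT-ST. In knockouts it was 104, 239.97, 223 and 547 in Cko-NS and 344, 319.7, 395 and 291 in Cko-ST. The non-stroke values spanned the stroke-side ones in both genotypes, and the differences were 0.39 ± 0.43 (adjusted p = 0.622) and 0.51 ± 0.43 (adjusted p = 0.461). Egr2 ranged from 2.65 to 24.8 in controls and from 4.36 to 48.4 in knockouts, with differences of 0.97 ± 0.72 and 0.42 ± 0.72. Egr3 differed by -0.17 ± 0.52 and 0.02 ± 0.52.

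The NR4A genes encode orphan nuclear receptors. Nr4a1 differed by 0.85 ± 0.48 in controls (adjusted p = 0.270) and 0.36 ± 0.48 in knockouts (adjusted p = 0.663). Nr4a2 differed by -0.13 ± 0.39 and 0.49 ± 0.39. Nr4a3 was listed at 0 in 10 of the 16 stroke-experiment libraries.

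KLF genes encode zinc-finger factors, of which Klf6 and Klf10 rose in both genotypes. Klf6 was 179, 174, 249.9 and 138 RPKM in WT-NS, 247, 277, 381 and 272 in WT-ST, 171, 189.9, 182 and 194 in Cko-NS and 358, 349, 345 and 279.9 in Cko-ST. It rose by 0.68 ± 0.17 in controls (adjusted p = 0.0136) and 0.85 ± 0.17 in knockouts (adjusted p = 0.00293), with only WT-NS-3 reaching the stroke-side range. Klf10, a gene first known for its response to TGF-beta, was 185, 166, 197 and 139.98 in WT-NS, 294, 249, 325 and 254 in WT-ST, 99.4, 177, 149 and 235 in Cko-NS and 314, 269.7, 217 and 226 in Cko-ST. It rose by 0.71 ± 0.21 (adjusted p = 0.0345) and 0.68 ± 0.21 (adjusted p = 0.0366), a call that ended under 8 of 16 alternatives in controls and 7 of 16 in knockouts. The libraries whose absence ended it were WT-NS-1, WT-NS-2, WT-NS-4, WT-ST-1 and WT-ST-3 (adjusted p from 0.0524 to 0.103), and Cko-NS-1, Cko-NS-3, Cko-ST-1 and Cko-ST-2 (adjusted p from 0.0797 to 0.118). For Klf6 in controls they were WT-NS-4 (0.55, adjusted p = 0.0534) and WT-ST-3 (0.55, adjusted p = 0.0549).

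Klf2 and Klf4 are the flow-induced factors of quiescent endothelium. Klf2 was 240.2, 242, 228 and 138 RPKM in WT-NS and 242, 295, 216 and 362 in WT-ST. In knockouts Klf2 was 211, 311, 279 and 371 in Cko-NS and 259.5, 332, 249 and 424 in Cko-ST. The hemispheres overlapped widely, and Klf2 differed by 0.40 ± 0.23 (adjusted p = 0.283) and 0.11 ± 0.23 (adjusted p = 0.798). Klf4 was 201, 225, 225 and 177 in WT-NS, 183, 281, 314 and 260.4 in WT-ST, 144, 221, 180.1 and 319.6 in Cko-NS and 275, 251, 207 and 308 in Cko-ST. Its differences were 0.31 ± 0.22 (adjusted p = 0.402) and 0.31 ± 0.22 (adjusted p = 0.359), and without Cko-NS-4 and Cko-ST-3 together Klf4 passed in knockouts (0.63, adjusted p = 0.0494).

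**Figure D3:**
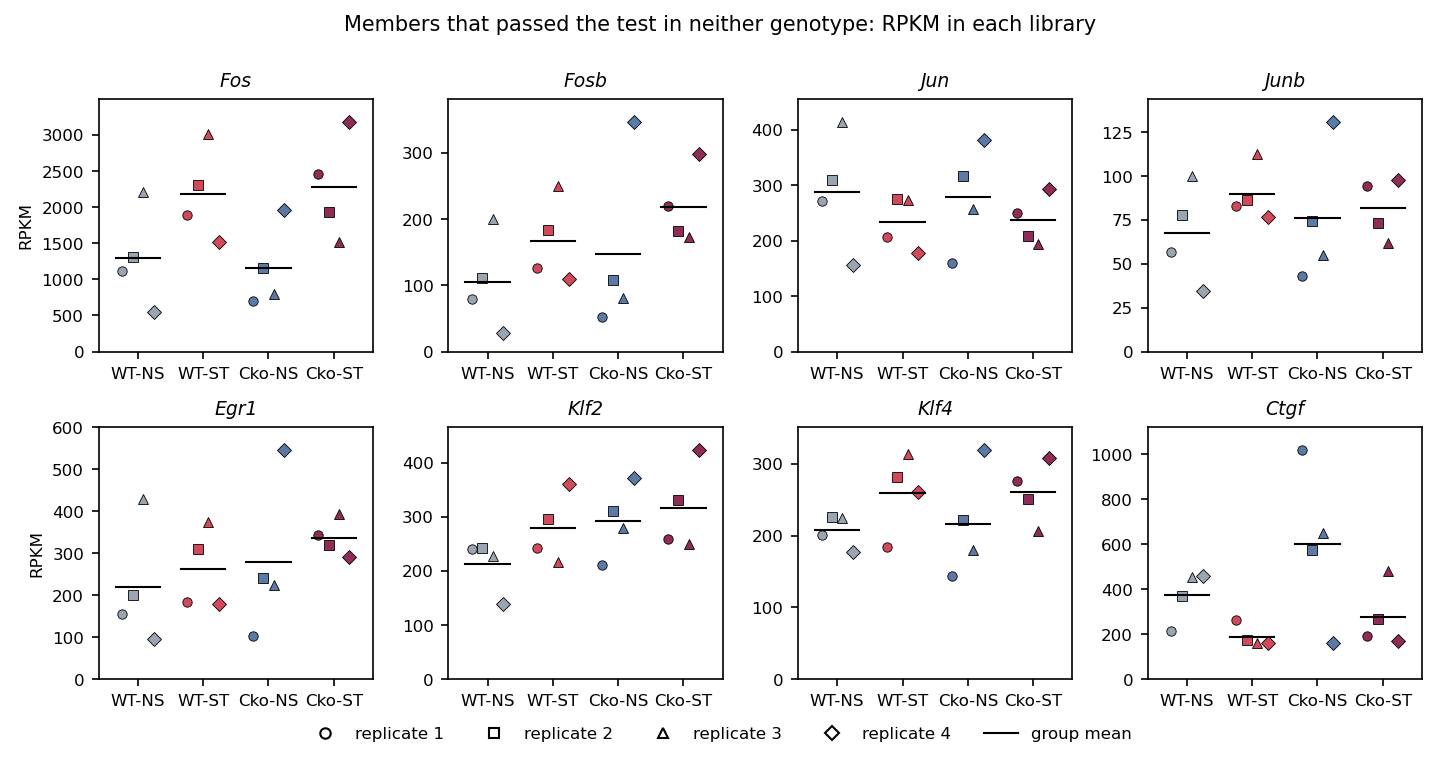
RPKM of 8 members that passed the test in neither stroke comparison without the replicate block, 1 point per library with the shape giving the replicate number and a line at the group mean. WT-NS-4 is the lowest WT-NS library for Fos, Fosb, Jun, Junb, Egr1, Klf2 and Klf4, and Cko-NS-4 is the highest Cko-NS library for these 7 genes and the lowest for Ctgf.

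The dual-specificity phosphatases switch MAP kinases off. Dusp6, which acts on ERK, was 199, 255, 274 and 225 RPKM in WT-NS and 398, 439, 559.7 and 352 in WT-ST. The groups did not overlap and Dusp6 rose by 0.86 ± 0.20 (adjusted p = 0.00727). Knockout values of Dusp6 were 282, 313, 356 and 195 in Cko-NS and 531, 508, 512 and 336 in Cko-ST, with Cko-ST-4 just below Cko-NS-3, and it rose by 0.73 ± 0.20 (adjusted p = 0.0197). That call ended without Cko-NS-4, Cko-ST-1 or Cko-ST-2 (adjusted p from 0.0558 to 0.0617), and without Cko-NS-4 and Cko-ST-3 together (0.51, adjusted p = 0.112). Dusp1, which acts on p38 and JNK as well, was 1001, 1279, 1710.3 and 655 in WT-NS and 1429, 1709, 2354 and 1268 in WT-ST (0.59 ± 0.24, adjusted p = 0.113). With the replicate number as a block Dusp1 passed in controls (adjusted p = 0.0103). In Cko-NS it was 858, 1200.3, 1117 and 1026 and in Cko-ST 1763, 1647, 1674 and 2071, with no overlap. It rose in knockouts by 0.77 ± 0.24 (adjusted p = 0.0338). This call ended under 9 of 16 alternatives, among them leaving out any of Cko-NS-1, Cko-NS-3, Cko-NS-4, Cko-ST-1, Cko-ST-2 and Cko-ST-4 (adjusted p from 0.0527 to 0.0926), or Cko-NS-4 and Cko-ST-3 together (adjusted p = 0.0751).

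Zfp36, Zfp36l1 and Btg2, which act on RNA decay, passed in neither comparison. Zfp36, which encodes tristetraprolin, an RNA-decay factor, ranged from 319 to 741 RPKM in controls and from 246 to 752 in knockouts and differed by 0.06 ± 0.30 and 0.10 ± 0.30. Its relative Zfp36l1 differed by 0.03 ± 0.17 and -0.01 ± 0.17, with intervals of -0.34 to 0.40 and -0.38 to 0.35. Btg2, an antiproliferative gene that recruits deadenylases, differed by -0.19 ± 0.35 and -0.58 ± 0.35 (adjusted p = 0.796 and 0.286).

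Among the stress effectors, Ier5, a gene linked to heat-shock signalling, was 21.1, 14.4, 23.8 and 12.6 RPKM in WT-NS and 33.6, 44.96, 54.4 and 46.9 in WT-ST. In knockouts it was 30.5, 23.4, 29.7 and 26.9 in Cko-NS and 46.5, 56.4, 55.1 and 37.4 in Cko-ST. No non-stroke library reached a stroke-side one of its genotype, and Ier5 rose by 1.30 ± 0.22 (adjusted p = 0.000667) and 0.79 ± 0.22 (adjusted p = 0.0208). The call in knockouts ended without Cko-NS-2, Cko-ST-2 or Cko-ST-3 (adjusted p from 0.0517 to 0.0673), and without Cko-NS-4 and Cko-ST-3 together (0.72, adjusted p = 0.0804). Ier3 differed by 0.52 ± 0.20 in controls (adjusted p = 0.0866) and -0.07 ± 0.20 in knockouts (adjusted p = 0.848), and Ier2 by 0.24 ± 0.37 and -0.26 ± 0.37.

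The GADD45 genes encode stress adaptors that act upstream of p38 and JNK. Gadd45g was 44.999, 34.8, 75.0 and 21.8 RPKM in WT-NS and 125, 90.2, 127 and 131 in WT-ST. It rose in controls by 1.53 ± 0.39 (adjusted p = 0.0138) with no overlap, a call that ended without WT-NS-4 (adjusted p = 0.0562). In Cko-NS it was 29.9, 56.6, 43.1 and 134, and in Cko-ST 112, 113, 87.0 and 197 (1.101 ± 0.39, adjusted p = 0.0661). The overlap was due to Cko-NS-4, and Gadd45g passed in knockouts without it (1.52 ± 0.34, adjusted p = 0.00687) and with the replicate block (adjusted p = 0.0150). Gadd45b was 4.84, 6.38, 1.59 and 1.502 in WT-NS, 18.6, 6.07, 12.0 and 10.7 in WT-ST, 6.39, 3.49, 4.26 and 14.0 in Cko-NS and 26.4, 9.25, 8.21 and 33.3 in Cko-ST. It rose in controls by 1.56 ± 0.50 (adjusted p = 0.0453), a call that ended without WT-NS-3, WT-NS-4, WT-ST-1, WT-ST-3 or WT-ST-4 (adjusted p from 0.0807 to 0.130). It differed by 1.27 ± 0.50 in knockouts (adjusted p = 0.0934; adjusted p = 0.0359 with the replicate block).

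Mcl1, an antiapoptotic member of the BCL2 family, was 105, 113, 129 and 128 RPKM in WT-NS and 166, 167, 164 and 213 in WT-ST and rose by 0.57 ± 0.14 (adjusted p = 0.0100; 0.38 and adjusted p = 0.0878 after quantile normalization). In knockouts it was 139, 126, 136 and 143 in Cko-NS and 174, 185, 212 and 158 in Cko-ST, again without overlap, and the difference of 0.41 ± 0.14 missed the threshold (adjusted p = 0.0546); it passed without Cko-ST-4 (0.48, adjusted p = 0.0399) and under median-of-ratios scaling (0.55, adjusted p = 0.0155). Sgk1, a kinase induced by serum and glucocorticoids, was 216, 155, 283 and 182 in WT-NS and 309.6, 376, 468 and 294 in WT-ST (0.80 ± 0.27, adjusted p = 0.0591, no overlap), and without WT-NS-3 it passed (0.96, adjusted p = 0.0397). It also passed in controls with the replicate number as a block (adjusted p = 0.00495). In Cko-NS Sgk1 was 412, 176, 224 and 150.2, and in Cko-ST 667, 459, 555 and 381. Cko-NS-1 alone overlapped the stroke side. Sgk1 rose in knockouts by 1.18 ± 0.27 (adjusted p = 0.00652). Rhob, a small GTPase of the endosome and cytoskeleton, differed by 0.23 ± 0.17 (adjusted p = 0.439) and 0.48 ± 0.17 (adjusted p = 0.0706). In knockouts Rhob passed under median-of-ratios scaling (0.62, adjusted p = 0.0333), without Cko-NS-4 (0.63, adjusted p = 0.0183) and without Cko-NS-4 and Cko-ST-3 together (0.64, adjusted p = 0.0272).

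Within groups the members went up and down together from library to library. WT-NS-3 was the highest of its 4 libraries for 23 of 34 members (22.5% of all genes with a mean of at least 1 RPKM) and WT-NS-4 the lowest for 24 (28.7% of genes). WT-ST-3 was the highest for 23 (15.8%) and WT-ST-4 the lowest for 18 (26.1%). In Cko-NS replicate 4 was the highest for 23 (34.2%) and replicate 1 the lowest for 20 (32.6%). Cko-ST had no such library, since Cko-ST-1 and Cko-ST-4 were each highest for 12. Against genes of like mean level, 12 of 34 members had a spread within groups above that of 90% of such genes, led by Egr2, Fosb and Atf3 (SD of 1.21, 0.89 and 0.92 on the log2 scale, where genes of like mean had medians of 0.42, 0.27 and 0.36). Klf6 had an SD of 0.24 against 0.26.

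**Figure D4:**
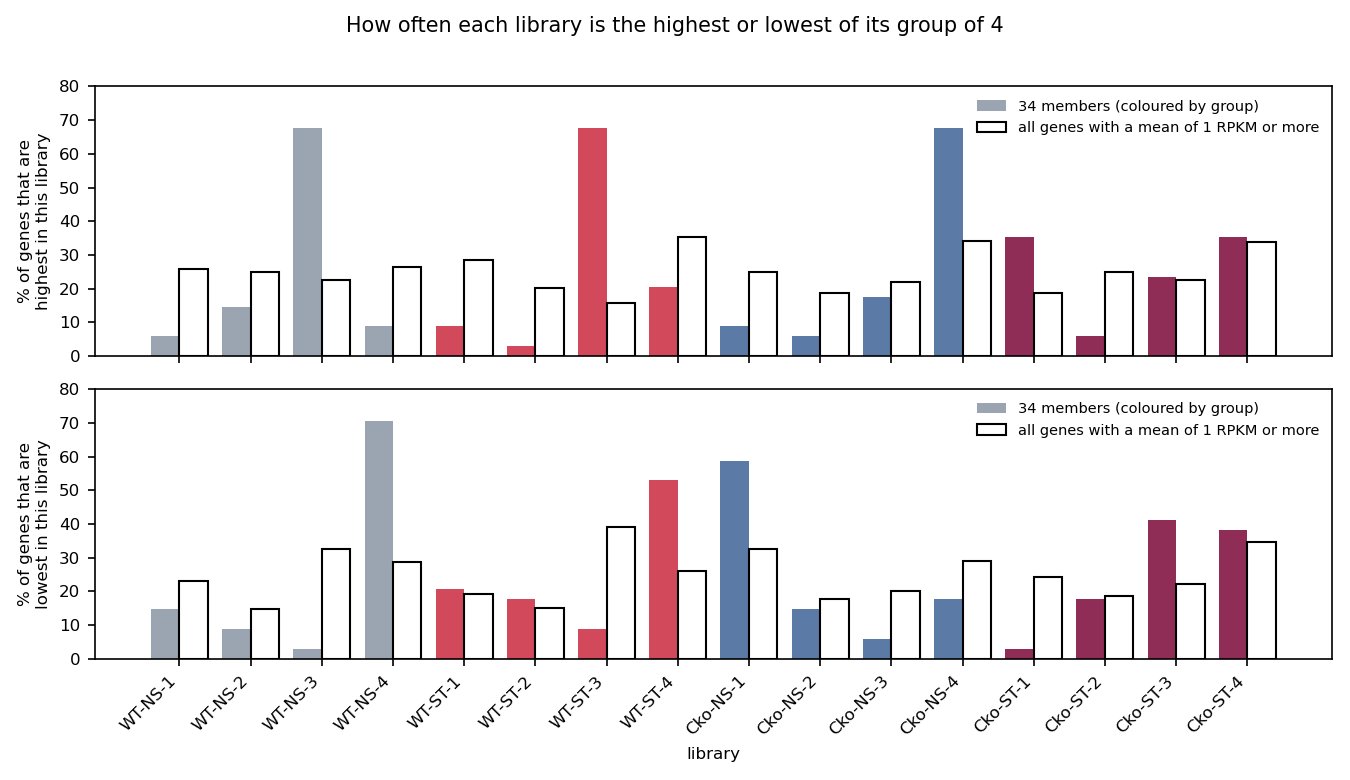
Share of genes for which each library is the highest (top) or the lowest (bottom) of its group of 4, for the 34 members (coloured) and for all genes with a mean of at least 1 RPKM (white). WT-NS-3, WT-ST-3 and Cko-NS-4 are each the highest for 67.6% of the members, and WT-NS-4 is the lowest for 70.6%.

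These libraries also differed in depth and in RNA of other cells. WT-NS-4 had an estimated 14.5 M reads and the other WT-NS libraries 4.71 to 7.43 M, and the sum of 9 microglia and macrophage markers was 84.1 RPKM in WT-NS-4 and 1.54 in WT-NS-3. Over groups that sum ran from 1.54 to 84.1 in WT-NS, 2.29 to 16.7 in WT-ST, 8.36 to 20.8 in Cko-NS and 3.82 to 10.5 in Cko-ST. P2ry12 fell with stroke in controls, 1 of 4 markers tested, and Tmem119 was at 0 in all stroke-side libraries. The sum of 8 neuron markers ran from 6.18 to 14.9, 3.77 to 11.5, 4.35 to 38.4 and 0.415 to 4.64 RPKM in the same order, with its maximum in Cko-NS-4. Snap25 fell in knockouts, 1 of 2 neuron markers tested, and Rbfox3 and Slc17a7 were at 0 in all stroke-side libraries. The oligodendrocyte sum of 6 markers was 188 to 1023 RPKM in WT-NS, 29.9 to 378 in WT-ST, 44.3 to 528 in Cko-NS and 21.2 to 274 in Cko-ST, with none at 0 throughout and 0 of 6 past the threshold in either comparison. The mural sum of 9 markers was 45.2 to 66.9, 11.3 to 48.7, 23.3 to 32.6 and 14.7 to 103, with Anpep at 0 in all 16 libraries and 0 of 3 tested past the threshold. Of 10 endothelial markers 2 rose and 1 fell in controls and 1 rose and 3 fell in knockouts. No marker of astrocytes, blood leukocytes, red cells and platelets or choroid plexus that could be tested passed in either comparison. The part of depth and of these cells in the members' differences was not tested.

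Other genes of the same pathways were taken from lists of non-members, which were also chosen with earlier results of these data known. Among 30 other primary response genes 24 were tested, of which 11 rose in controls and 9 in knockouts and none fell. The shares to set beside this count and the counts of the lists that follow are those over all genes, 8.46% rising and 4.84% falling in controls and 6.44% and 8.71% in knockouts. In controls they were led by Adamts1 (2.94 ± 0.25, adjusted p = 6.2e-07), Hbegf (2.81 ± 0.30, adjusted p = 8.6e-06), Ifrd1 (1.96 ± 0.21, adjusted p = 8.8e-06) and Plaur (2.84 ± 0.33, adjusted p = 1.7e-05). In knockouts the same 4 genes led, with differences of 2.36, 2.30, 1.68 and 2.39. Adamts1 is a secreted protease, Hbegf a ligand of the EGF receptor and Plaur the urokinase receptor.

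Of 13 MAPK feedback inhibitors tested, 2 rose in controls, Errfi1 (2.22 ± 0.41, adjusted p = 0.00130) and Spry4 (1.63 ± 0.44, adjusted p = 0.0188). In knockouts 4 rose, Trib1 (1.74 ± 0.34, adjusted p = 0.00196), Errfi1 (1.98 ± 0.41, adjusted p = 0.00301), Dusp2 (1.76 ± 0.41, adjusted p = 0.00731) and Spry4 (1.38 ± 0.44, adjusted p = 0.0424). Dusp2, and Thbs1 among the primary response genes, were under a mean of 1 RPKM in both non-stroke groups and so also entered through the stroke side. Of 22 genes of MAPK and serum response factor input, 4 rose in controls, namely Elk3, Atf1, Rps6ka3 and Srf (0.73, 0.71, 0.82 and 1.07). In knockouts Mef2a, Srf and Elk3 rose (0.93, 0.97 and 0.58) and Rps6ka1 fell (-1.20). Srf, the factor of the CArG box, had a mean of 2.92 RPKM.

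Of 12 AP-1 partners tested, Atf4, a factor of the integrated stress response, rose in controls (1.65 ± 0.23, adjusted p = 0.00011) and in knockouts (1.16 ± 0.23, adjusted p = 0.00231), and Bach1 fell in knockouts (-1.01 ± 0.23, adjusted p = 0.00535), counts near the shares over all genes. Of 10 other YAP and TEAD genes only Nuak2 passed, in controls (1.66 ± 0.45, adjusted p = 0.0199), and none passed in knockouts, where Amotl2 and Wwtr1 each differed by 0.37, again near those shares. Of 10 genes tested from a list of flow targets of KLF2 and KLF4, 7 rose in controls and 6 in knockouts. The list also holds Cnp, which is among the oligodendrocyte markers above and rose in neither. Those that rose included Edn1 (1.89 and 1.94), Thbd (1.03 and 1.23), Nqo1 (3.41 and 2.84) and Hmox1 (2.52 and 3.11) in both, and Nos3 in controls (1.56; 0.39 and adjusted p = 0.392 in knockouts). Hmox1 and Nqo1 are also targets of NRF2 and Edn1 is a vasoconstrictor that KLF2 represses. Of 8 other KLF factors none rose; Klf9 fell in controls (-0.88), and Klf13 and Klf12 fell in knockouts (-0.75 and -0.99).

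Heat-shock genes are induced by cell handling as well as by ischemia. Of 12 tested, 4 rose in controls and 5 in knockouts and none fell. Hspe1 (1.62 ± 0.24, adjusted p = 0.000193), Hsp90ab1 (0.97 ± 0.21, adjusted p = 0.00415) and Hsph1 (1.60 ± 0.43, adjusted p = 0.0185) were among those that rose in controls. In knockouts Hspd1, Hsph1, Hsp90ab1 and Hspe1 led (0.88, 1.73, 0.81 and 0.86). The hemispheres of a genotype were sorted as separate suspensions, and the part of handling in these differences was not tested.

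Gpr124 genotype was compared within each hemisphere. These comparisons share libraries with the stroke comparisons. In the non-stroke hemisphere 0 of 34 members passed, where 0.315% of genes did, and 3 members and 1405 genes had an unadjusted p under 0.05. Those were Ier3 (0.65 ± 0.20, adjusted p = 0.138), Ier5 (0.63 ± 0.22, adjusted p = 0.198) and Fosl2 (0.70 ± 0.27, adjusted p = 0.254), all higher in Cko-NS. All genes were shifted the same way, with a median of 0.11 and 60.5% positive, against 0.22 and 25 of 34 for the members. Median-of-ratios scaling moved the median over all genes to -0.0035 and left 1 member at an unadjusted p under 0.05. Ier3, an early-response gene of survival signalling, was 37.8, 50.0, 48.8 and 53.4 RPKM in WT-NS and 68.4, 83.1, 88.5 and 61.0 in Cko-NS, with no overlap, as for 6.66% of genes that were wholly higher. Differences of the members ran from -0.22 to 0.95, and the 95% intervals of 18 of the 34 lay within 1 of 0 on the log2 scale.

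In the stroke hemisphere 0 of 34 members and 0% of genes passed; 0 members and 476 genes had an unadjusted p under 0.05. Differences ran from -0.22 to 0.54, and 23 intervals lay within 1 of 0. They were positive for 30 of 34 members, against 46.0% of genes, with medians of 0.12 and -0.03. The members went up and down together within groups, so this count is not a test. For Fos the difference was 0.05 ± 0.37 and for Myc 0.34 ± 0.30. The test of whether the stroke effect itself differed between genotypes called 0 members and 0% of genes, with 1 member (Ier3, -0.59 ± 0.28, adjusted p = 0.702) and 691 genes at an unadjusted p under 0.05. The median interaction over all genes was -0.14, and under either scaling 0 members reached an unadjusted p under 0.05. In the fit without the block, members passed in controls alone (Atf3, Gadd45b, Gadd45g, Fosl2 and Mcl1) or in knockouts alone (Sgk1 and Dusp1). These members were thus not shown to differ between genotypes. Their interactions were -0.43 ± 0.78, -0.29 ± 0.70, -0.42 ± 0.55, -0.64 ± 0.39, -0.16 ± 0.20, 0.38 ± 0.38 and 0.19 ± 0.33, and only 13 of 34 intervals lay within 1 of 0.

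With beta-catenin stabilised in endothelium and no stroke, 0 of 33 members passed, as did 0% of the 11252 genes tested; 0 members and 590 genes had an unadjusted p under 0.05 in limma. These libraries came from total RNA by another kit, so their RPKM values were not compared with those above. Fos was 94.7, 43.4 and 72.4 RPKM in Bcat and 55.9 and 124 in WT (-0.31 ± 0.41, adjusted p = 0.9697). Fosb was 40.2, 19.4 and 26.7 against 12.8 and 49.2, Jun 89.0, 61.3 and 48.8 against 62.5 and 79.1, and Junb 7.20, 5.26 and 13.5 against 6.03 and 13.2. The Bcat and WT values of these genes overlapped. Egr1 was 47.5, 25.5 and 44.5 against 45.2 and 50.2, and Klf2 102, 108 and 42.7 against 119 and 89.7.

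The groups did not overlap for 4 members, all lower in Bcat, out of 33, where 11.7% of genes were lower without overlap; 0 members were wholly higher, against 8.66% of genes. Gadd45g was 5.79, 8.15 and 12.7 RPKM against 13.2 and 22.1 (-0.94 ± 0.45, adjusted p = 0.957). Gadd45b was 2.92, 4.37 and 4.60 against 8.57 and 7.39 (-0.87 ± 0.49, adjusted p = 0.966). Atf3 was 20.4, 8.89 and 18.7 against 21.7 and 34.99 (-0.83 ± 0.43, adjusted p = 0.957), and Klf4 was 126, 144 and 87.1 against 149.998 and 145 (-0.34 ± 0.26, adjusted p = 0.969). The largest difference was that of Ctgf, with 23.9, 33.6 and 99.8 against 32.5 and 9.39 (1.25 ± 0.64, adjusted p = 0.957), where Bcat-3 was far above the WT pair, Bcat-2 just above it and Bcat-1 between its values. The 95% intervals were wide, from 1.01 to 3.79 on the log2 scale, and those of 8 of 33 members lay within 1 of 0, so differences of that size could not be resolved for most members. None of the genes of the other lists passed; of those named by their mean, Id1 differed by 0.12 ± 0.31, Cdkn1a by 0.25 ± 0.47 and Hspa8 by -0.24 ± 0.36.

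**Figure D5:**
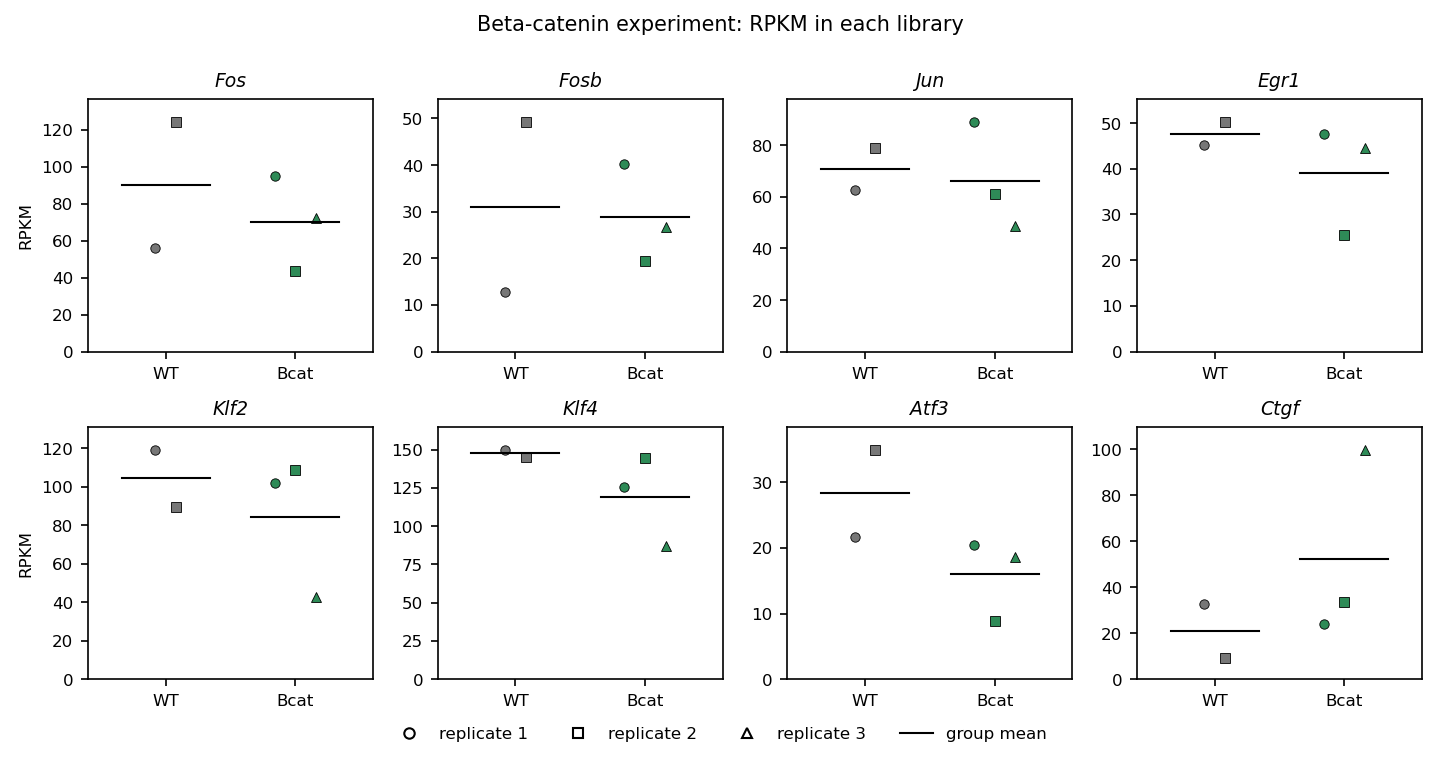
RPKM of 8 members in the 2 WT and 3 Bcat libraries, 1 point per library with the shape giving the replicate number and a line at the group mean. The groups overlap for Fos, Fosb, Jun, Egr1, Klf2 and Ctgf, and all Bcat values of Klf4 and Atf3 lie below both WT values.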

How the data were processed

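RPKM values per gene and library were deposited by the authors in 1 table, whose name gives the unit, for 16 stroke-experiment and 5 beta-catenin libraries. Per the submitters' processing notes the tool edgeR and the genome build mm10 are named; aligner, annotation and gene lengths were not given in the sources used here. Per the labels' protocols the stroke libraries are 3' digital expression libraries from polyadenylated RNA and the others were made from total RNA with other kits, so levels were not compared between experiments; tags at the 3' end do not scale with gene length, so the order of levels between genes was not tested. Of 24260 rows, 54 that share a name were left out, and 8 columns that match no sample were not used.

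Values were taken as log2(RPKM + 1), a pseudocount of 1, and fitted with limma 3.58.1 in R 4.3.3 (trended moderation, two-sided), 1 fit of 4 group means for the stroke experiment and 1 for the beta-catenin experiment, over genes with a mean of at least 1 RPKM, leaving out Xist and 4 Y-linked genes. Count models were not used, since the table holds no counts; depth was estimated from the steps between low values, which limits precision most in the shallowest libraries. The fit was tested on simulated data whose noise was drawn separately for each gene and library. That does not cover members that go up and down together or paired hemispheres. The members and gene lists were chosen with earlier results of these data known. All members are named; of each other list, up to 4 genes past the threshold with the lowest p per comparison, or up to 2 of the highest mean. The values of 1 listed gene are not reported here. The spread of a member was set beside that of genes whose mean lay within 0.5 on the log2 scale.

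Deviations of same-numbered libraries from their group means correlated over all genes at 0.1005, 0.134, 0.214 and 0.105 between Cko-NS and Cko-ST. All 4 are above 0.1, though the first and the last barely, so the numbers were taken to pair the knockout hemispheres; the labels do not state a pairing. Values with the replicate number as a block are given beside a stroke result of either genotype where the call changes. Alternatives were a pseudocount of 0.1, no filter, a mean of at least 5 RPKM, median-of-ratios scaling, quantile normalization, the replicate block, leaving out each library, leaving out Cko-NS-4 and Cko-ST-3 together, and fitting only the groups compared. Promoter windows are RefSeq's (GRCm38.p6) and gene positions GENCODE vM21's (GRCm38).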

Additional observations from a re-analysis of the deposited data

Results flagged for a closer look

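In 10 of 136 groups of 4 libraries, 1 library stood apart from the other 3 by more than Dixon's 95% critical ratio; chance flags about 1 in 20 groups. Cko-ST-4 was low for Fosl1 (1.185 RPKM), Klf6 (279.9 RPKM) and Dusp6 (336.3 RPKM). Cko-NS-2 was high for Fosl1 (0.3684 RPKM) and Cko-ST-1 was high for Atf3 (61.76 RPKM). WT-NS-4 was low for Klf2 (138.3 RPKM) and high for Myc (0.8028 RPKM). WT-ST-4 was high for Maff (5.686 RPKM) and Mcl1 (213.5 RPKM), and WT-ST-2 was low for Gadd45g (90.24 RPKM). Myc in WT-NS-4 was still below every stroke-side library of controls.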

How the results depend on the processing

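Of 323 values of single members under the alternatives, 272 kept their direction and call, 51 kept their direction and lost the call, and none reversed. Settings that changed only the filter, the block or the libraries of the other genotype left the difference itself unchanged, so it could not reverse there. Settings in which a member was below the filter are not counted. Fosl1 had 10 counted settings in controls and 11 in knockouts, and Myc 15 in each. Of 132 member counts, 125 stayed within 1.5 times the reported count. Leaving out 1 library gave 7 to 14 members that rose and 0 that fell in controls, and 4 to 11 that rose and 0 to 1 that fell in knockouts. The shares over all genes in those fits are not given here, and the cause was not tested. The 1 member that fell in an alternative was Ctgf. In controls it fell when only the 2 groups were fitted and without Cko-NS-4 and Cko-ST-3 together. In knockouts it fell without both and without Cko-NS-4 alone. Quantile normalization ended the calls of Klf6, Klf10 and Mcl1 in controls and of Dusp1, Dusp6 and Klf10 in knockouts, and median-of-ratios scaling that of Klf10 in controls. In knockouts median-of-ratios scaling also added Mcl1, Gadd45g, Fos and Rhob (13 rose), where quantile normalization left 6. Counting without Fosl1 and Myc, a choice made after seeing the data, gave 10 in controls and 7 in knockouts. With the replicate number as a block, 13 members rose in knockouts and 15 in controls, where the added members were Sgk1 (adjusted p = 0.00495), Fos (adjusted p = 0.00860) and Dusp1 (adjusted p = 0.0103). Of the 9838 genes tested, 682 rose and 894 fell in knockouts with the block, and 877 rose and 583 fell in controls. In controls the same-numbered libraries correlated at 0.0986, 0.130, 0.0721 and 0.0117, all positive but not all above 0.1. The numbers were thus not taken to pair the control hemispheres, which does not show that these libraries were unpaired. The block changed no member call in the genotype, interaction or beta-catenin comparisons, and moved the genes called between genotypes in the non-stroke hemisphere from 31 to 60. In the genotype and beta-catenin comparisons the block was the bare number, which joins libraries of different genotype. Same-numbered WT-NS and Cko-NS libraries correlated at 0.060, 0.099, 0.0016 and 0.0055, so that block is not a pairing. With 4 libraries a group, and 3 against 2 for beta-catenin, moderate differences of the most scattered members cannot be resolved.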
